A study of Saccharomyces cerevisiae with 4 samples.

Results

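The genes described here encode the translation factors of budding yeast (*Saccharomyces cerevisiae*), the proteins that start, extend, end and recycle protein synthesis on cytosolic ribosomes, together with the kinase pathway that regulates initiation. Members were 46 gene symbols, taken as the entries that carry one of these symbols in the deposited tables. *TEF1* and *TEF2* share 1 entry, so the list comprised 45 of the 6549 entries, and all 45 passed the filter used below, which kept entries averaging 10 RPKM or more. Expression was measured in SK1 cells, a strain background that sporulates efficiently, after 4 h in the sporulation medium that triggers meiosis. The cells carried the *dbp1Δ::kanMX6* replacement, in which the *DBP1* ORF has been exchanged for a Geneticin-resistance cassette, or were wild type. By the study's strain list both strains are *MATa/MATalpha* diploids that share *trp1::hisG* and *ho::LYS2* insertions, *ura3* and *lys2* mutations and further auxotrophic markers, and both copies of *DBP1* are replaced in the mutant. Cells received cycloheximide for 1 min before collection, which holds ribosomes on mRNA, at a dose the labels give as 100 µM and the methods of the study in mass per volume. Ribosome footprints (the mRNA fragments that ribosomes shield from nuclease) and mRNA were each sequenced once per genotype, 4 libraries in all. No library was replicated, so differences between genotypes have no replicate check and were not tested.

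Initiation begins when eIF2, a GTPase, brings the initiator tRNA to the small ribosomal subunit with the help of eIF1, eIF1A, eIF5 and eIF3, while eIF4F, a complex of cap-binding, scaffold and helicase proteins, recruits the mRNA. The exchange factor eIF2B returns eIF2 to its GTP form, and this step is slowed when the kinase Gcn2 phosphorylates eIF2 in starved cells, which raises translation of the transcription factor Gcn4. Elongation is driven by eEF1A, eEF2, eIF5A and, in fungi, eEF3, and the release factors Sup35 and Sup45 end the protein chain before Rli1 splits the ribosome. Sporulation medium holds no nitrogen source, and many of these factors are encoded by genes whose expression otherwise follows growth.

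Values are RPKM, reads scaled to the length of the ORF and to the reads of the library, and translation efficiency (TE) is footprint RPKM divided by mRNA RPKM. Fold changes are plain ratios of *dbp1Δ::kanMX6* to wild type. Ranges in parentheses after a fold change are 95% intervals for counting error alone, from reads inferred out of the RPKM steps of short ORFs, and were formed for 38 members. No interval was formed for the other 7, because *TIF1*, *TIF2*, *EFT1*, *EFT2* and the *TEF1*/*TEF2* entry share sequence and *EFB1* and *TEF4* contain an intron. The libraries held an inferred 3260000 footprint and 4770000 mRNA reads in *dbp1Δ::kanMX6* cells, and 4120000 footprint and 2220000 mRNA reads in wild type. The deleted gene *DBP1*, which encodes an RNA helicase, had 6.9 RPKM of footprints and 2.9 RPKM of mRNA in *dbp1Δ::kanMX6* cells, against 435.2 and 131.5 RPKM in wild type, as the labels require. The neighbouring gene *MRP51*, which encodes a mitochondrial ribosomal protein, had 5.6 RPKM of footprints and 173.8 RPKM of mRNA in *dbp1Δ::kanMX6* cells, against 47 and 96.8 RPKM in wild type. Loss of *DBP1* and the altered output of *MRP51* came together in these cells, and their parts in the values below cannot be told apart.

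The label of meiotic cells was checked against the summed levels of marker genes, because being above 0 does not set meiotic markers apart. All 9 early meiotic markers were above 0 in every library, with summed footprints of 10498 RPKM in *dbp1Δ::kanMX6* cells and 8322 RPKM in wild type, and summed mRNA of 9342 RPKM in *dbp1Δ::kanMX6* cells and 8316 RPKM in wild type. The 12 middle meiotic markers, which include the regulator *NDT80*, were also above 0 in every library, but their summed footprints were 7322 RPKM in *dbp1Δ::kanMX6* cells and 20219 RPKM in wild type, and their summed mRNA was 9876 RPKM against 23654 RPKM. All 12 had lower footprints in *dbp1Δ::kanMX6* cells, and 11 had lower mRNA, where 31% and 28.6% of all entries did. The cultures therefore differed in the level of genes of the meiotic divisions, and the part of this difference in the results below was not tested. Haploid mating genes (4 found of 5 listed) summed to 78.4 RPKM of footprints in *dbp1Δ::kanMX6* cells and 39.3 RPKM in wild type. Their summed mRNA was 257.3 and 228.3 RPKM, of which *MFA1* had 148.9 and 152.2 RPKM. Genes of growth in glucose (4) summed to 10.8 RPKM of footprints in *dbp1Δ::kanMX6* cells and 14.1 RPKM in wild type. Their summed mRNA was 31.1 and 26.5 RPKM. The mating and glucose genes were also above 0 in every library, and only 312 to 649 of the 6549 entries were at 0 in each library. Being above 0 therefore does not check the label. The sums of both meiotic lists were far higher than those of the mating and glucose lists in every library. In bulk libraries, fewer cells that express a gene and less RNA per cell cannot be told apart.

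Translation factor mRNA was higher in *dbp1Δ::kanMX6* cells for most members, and footprints were higher by a smaller amount. The median member had a log2 change of 0.75 for mRNA, a ratio of 1.68, where the median over all 5551 entries with an mRNA ratio was 0.37. For footprints the median member was at 0.41, a ratio of 1.33, and the median of 5453 entries was 0.35. TE was correspondingly lower, with a median member at −0.20 and a median of all 5452 entries at −0.07. The middle meiotic markers stood at −1.26 for footprints and −1.01 for mRNA in the same libraries.

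Of the 45 members, 41 had higher mRNA in *dbp1Δ::kanMX6* cells and 41 had higher footprints, where a ratio above 1 was found for 71.3% of all entries in mRNA and 68.7% in footprints. The other 4 members in each assay were lower, as were 28.6% of all entries in mRNA and 31% in footprints. An mRNA change of at least 1.5-fold upward was seen for 30 members (66.7%), against 36% of all entries. The corresponding count for footprints was 17 (37.8%), against 36.3% of all entries, a share near the background. At 2-fold, 13 members (28.9%) were higher for mRNA, against 16.6% of all entries, and 5 (11.1%) for footprints, against 15.1%. No member was lower by 1.5-fold in either assay, where 9.12% of all entries were for mRNA and 14% for footprints, and 4.18% and 8.23% were lower by 2-fold. TE was lower for 35 members (77.8%), against 55.2% of all entries, and 8 members (17.8%) were lower by at least 1.5-fold, against 18%. No member passed 2-fold for TE in either direction, where 3.43% of all entries were higher and 6.07% lower by that much. The direction of small changes depended on scaling: when changes were taken relative to the median of all entries, 26 members were higher and 19 lower for footprints, and 32 were higher and 13 lower for mRNA. Only *TEF4* for footprints and *RLI1* for mRNA were then at least 2-fold higher, where 6.36% and 7.1% of all entries were, and no member was 2-fold lower, where 12.8% of entries were for footprints and 8.43% for mRNA. After centring no member passed 2-fold for TE either, against 3.91% of all entries upward and 5.34% downward.

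**Figure D1:**
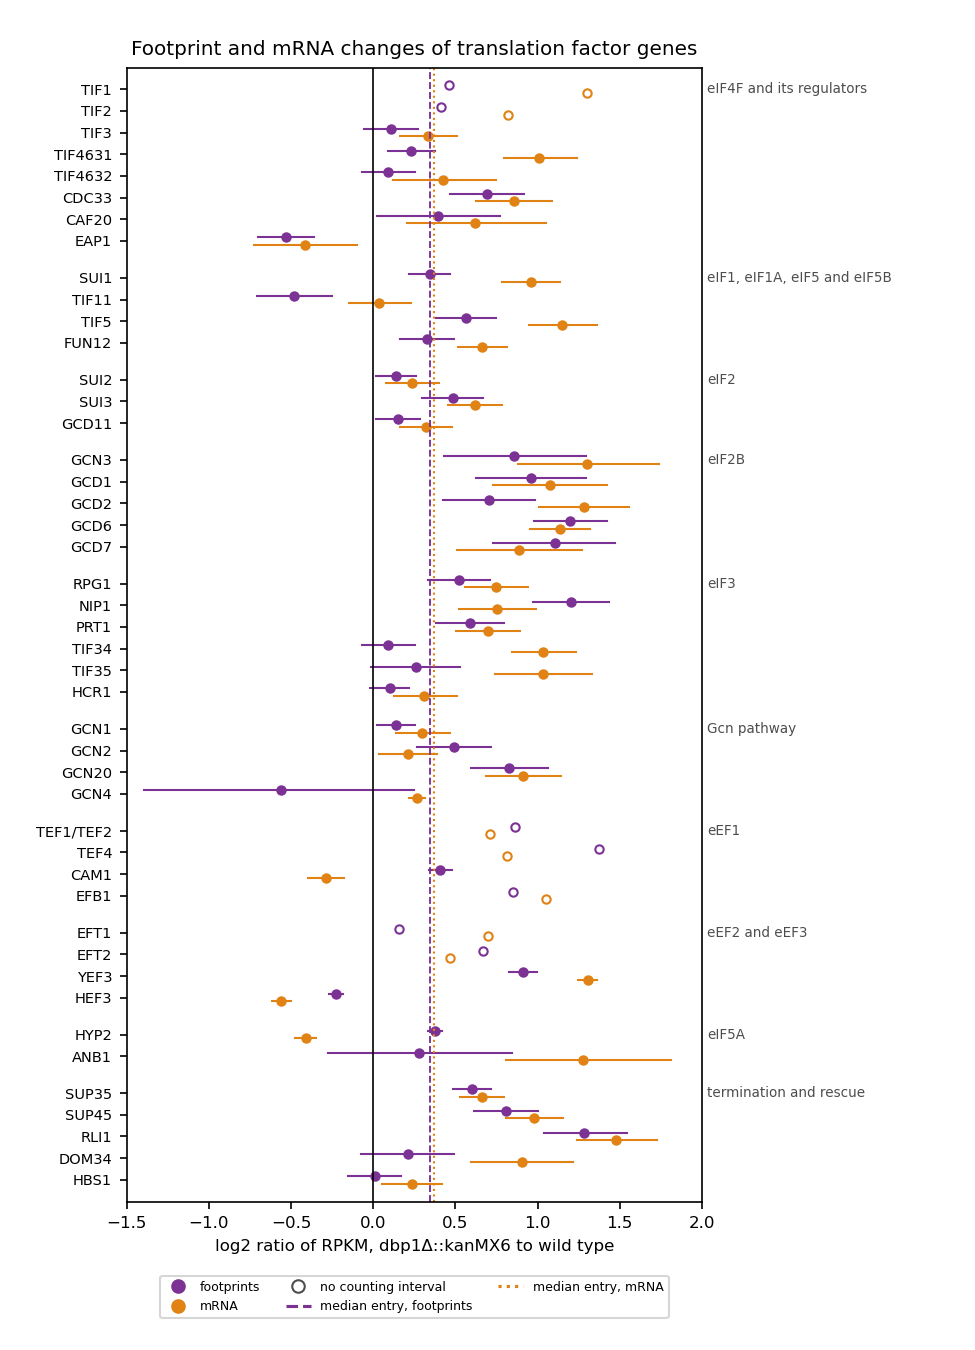
Log2 ratio of RPKM in *dbp1Δ::kanMX6* to wild-type cells for the 45 members, grouped by role, with footprints in purple and mRNA in orange. Bars are 95% intervals for counting error, open circles have no interval, the solid line marks no change, and the dashed and dotted lines mark the median entry for footprints (0.35) and mRNA (0.37). All 5 eIF2B genes lie right of both median lines, whereas *HEF3*, *HYP2*, *CAM1* and *EAP1* lie left of the line of no change for mRNA.

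**Figure D2:**
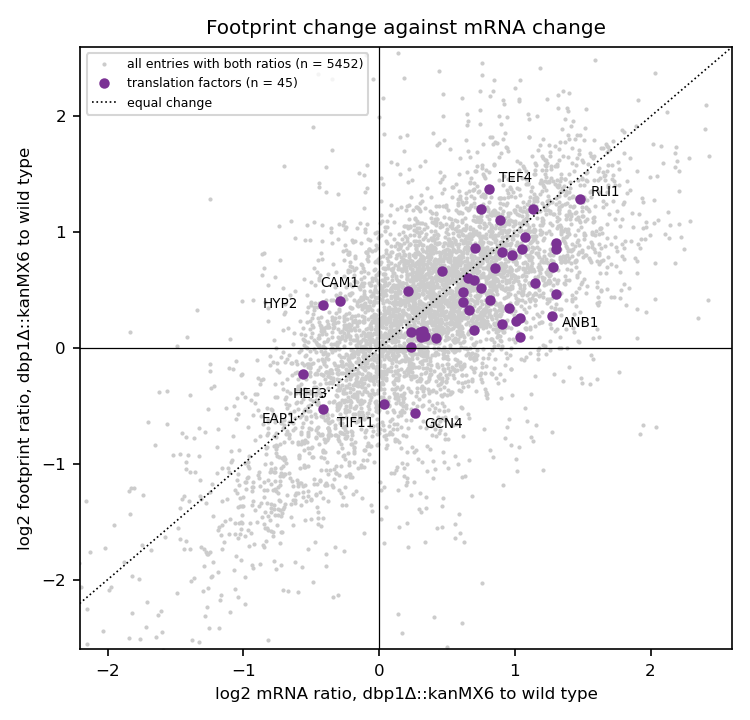
Log2 footprint ratio against log2 mRNA ratio, *dbp1Δ::kanMX6* to wild type, for 5452 entries (grey) and the 45 members (purple). The dotted line marks equal change, the 35 members with lower TE lie below it, and 109 grey entries fall outside the axes.

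All 8 genes of the mRNA recruitment factors, eIF4F and its regulators, had lower TE in *dbp1Δ::kanMX6* cells, where 55.2% of all entries did. Their median log2 TE change was −0.28. The TE interval lay below 1 for *TIF4631* (0.487 to 0.698) but included 1 for *TIF3*, *TIF4632*, *CDC33*, *CAF20* and *EAP1*. *TIF1* and *TIF2* have no interval. Higher mRNA was found for 7 of the 8 genes (87.5%), against 71.3% of all entries. *TIF1* and *TIF2* both encode the RNA helicase eIF4A. *TIF1* had 250 RPKM of footprints and 302.3 RPKM of mRNA in *dbp1Δ::kanMX6* cells, against 181.3 and 122.6 RPKM in wild type, a 1.38-fold and a 2.47-fold difference. *TIF2* had 726.2 RPKM of footprints and 710.3 RPKM of mRNA in *dbp1Δ::kanMX6* cells, against 545.6 and 402.9 RPKM in wild type. *TIF2* was thus the higher of the pair in every library, and took 74.4% and 75.1% of the pair's summed footprints in *dbp1Δ::kanMX6* and wild-type cells. A further entry for sequence the copies share had 547.9 RPKM of footprints and 860.9 RPKM of mRNA in *dbp1Δ::kanMX6* cells, against 329.8 and 509.9 RPKM in wild type. Reads of that entry belong to either gene, so the split between *TIF1* and *TIF2* is uncertain.

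The eIF4G scaffold is encoded by *TIF4631* and *TIF4632*. *TIF4631* mRNA was 64.9 RPKM in *dbp1Δ::kanMX6* cells and 32.2 RPKM in wild type, 2.02-fold higher (1.73 to 2.36), whereas its footprints were 84.8 and 72.2 RPKM, 1.17-fold higher (1.06 to 1.30) but below the median entry (0.924 after centring). *TIF4632* mRNA was 25.6 RPKM in *dbp1Δ::kanMX6* cells and 19.1 RPKM in wild type, and its footprints were 63.8 and 59.9 RPKM, with a footprint interval (0.952 to 1.19) that includes no change and a centred ratio of 0.838. *TIF4631* therefore made up 71.7% of the pair's mRNA in *dbp1Δ::kanMX6* cells (69.1 to 74.3) and 62.8% in wild type (57.2 to 68.1), but 57.1% and 54.7% of its footprints. Both genes were among the more efficiently translated entries, and *TIF4632* had the highest TE of all members in wild type, at 2.49 in *dbp1Δ::kanMX6* cells and 3.14 in wild type.

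Among the cap-binding partners, *CDC33*, which encodes the cap-binding protein eIF4E, had 176.2 RPKM of footprints and 248.7 RPKM of mRNA in *dbp1Δ::kanMX6* cells, against 109.1 and 137.3 RPKM in wild type. Its 1.62-fold higher footprints (1.38 to 1.89) were the largest footprint increase of this group. *CAF20* and *EAP1* encode proteins that bind eIF4E and compete with eIF4G. *CAF20* footprints were 78.1 RPKM in *dbp1Δ::kanMX6* cells and 59.4 RPKM in wild type, 1.31-fold higher (1.02 to 1.71). *EAP1* went the other way in both assays, with 69.7 RPKM of footprints and 24.7 RPKM of mRNA in *dbp1Δ::kanMX6* cells, against 100.6 and 32.9 RPKM in wild type. *EAP1* footprints were 1.44-fold lower (1.28 to 1.63) and its mRNA 1.33-fold lower (1.07 to 1.65). Its TE was high in both genotypes, at 2.82 and 3.06. *TIF3*, the gene of eIF4B, which stimulates the helicase, had 134.9 RPKM of footprints in *dbp1Δ::kanMX6* cells and 125.3 RPKM in wild type (ratio 0.962 to 1.21), a change that was downward after centring, at 0.847.

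The factors of start codon selection and subunit joining were next. *SUI1* encodes eIF1, which guards start codon choice, and had 997.8 RPKM of footprints and 879.5 RPKM of mRNA in *dbp1Δ::kanMX6* cells, against 786.7 and 452.6 RPKM in wild type. *SUI1* mRNA was 1.94-fold higher (1.72 to 2.20) and its footprints 1.27-fold (1.16 to 1.38), close to the median entry (0.997 after centring). *TIF11*, which encodes eIF1A, had 167 RPKM of footprints in *dbp1Δ::kanMX6* cells and 233.3 RPKM in wild type, 1.40-fold lower (1.19 to 1.63), although its mRNA was 339.2 and 330.5 RPKM, a small excess that centring turned to a ratio of 0.794. *TIF5*, the gene of eIF5, which stimulates GTP hydrolysis by eIF2, had 136.6 RPKM of footprints and 189.6 RPKM of mRNA in *dbp1Δ::kanMX6* cells, against 92.4 and 85.6 RPKM in wild type. *FUN12* encodes eIF5B, the GTPase that joins the ribosomal subunits, and its footprints were 62.4 RPKM in *dbp1Δ::kanMX6* cells and 49.8 RPKM in wild type, 1.25-fold higher (1.12 to 1.40) and at 0.985 after centring. The TE of all 4 genes was lower in *dbp1Δ::kanMX6* cells, where that of 55.2% of all entries was. These TE ratios were between 0.653 and 0.791 of the wild-type value, and each of their intervals lay below 1.

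The GTPase eIF2 and its exchange factor eIF2B differed in how far their genes moved. Their wild-type levels differed too, with every eIF2B gene below every eIF2 gene in both assays. Over all entries, changes were smaller at higher wild-type level (Spearman rho −0.458 for mRNA and −0.339 for footprints). The wild-type value enters both sides of that relation, and the part of level in the difference between the complexes was not tested. The eIF2 genes *SUI2* (alpha), *SUI3* (beta) and *GCD11* (gamma) had median log2 changes of 0.15 for footprints and 0.32 for mRNA, below those of the median entry, and *SUI2* and *GCD11* were lower in both assays after centring. *SUI2* had 342.5 RPKM of footprints and 257.5 RPKM of mRNA in *dbp1Δ::kanMX6* cells, against 311.3 and 218.6 RPKM in wild type. *SUI3* had 180.9 and 319.1 RPKM in *dbp1Δ::kanMX6* cells, against 129.3 and 208 RPKM in wild type. *GCD11* had 166.3 and 158.3 RPKM in *dbp1Δ::kanMX6* cells, against 150 and 126.7 RPKM in wild type. *SUI3* thus had the highest ratios of the eIF2 genes, at 1.40-fold for footprints (1.23 to 1.59) and 1.53-fold for mRNA (1.37 to 1.72).

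All 5 eIF2B genes were at least 1.5-fold higher in both assays, where 36.3% of all entries were for footprints and 36% for mRNA, with median log2 changes of 0.96 for footprints and 1.13 for mRNA, and all 5 stayed above the median entry. *GCD6*, the catalytic epsilon subunit, had 67 RPKM of footprints and 138.3 RPKM of mRNA in *dbp1Δ::kanMX6* cells, against 29.2 and 63 RPKM in wild type. Its footprints were 2.29-fold higher (1.97 to 2.68) and its mRNA 2.20-fold (1.94 to 2.50). *GCD1* (gamma), the other subunit of the catalytic part, had 33.9 and 46.8 RPKM in *dbp1Δ::kanMX6* cells, against 17.4 and 22.2 RPKM in wild type. The regulatory subunits, which sense phosphorylated eIF2, behaved alike in direction. *GCN3* (alpha) had 37.3 RPKM of footprints and 67.5 RPKM of mRNA in *dbp1Δ::kanMX6* cells, against 20.6 and 27.4 RPKM in wild type. *GCD7* (beta) had 44.5 and 52.9 RPKM in *dbp1Δ::kanMX6* cells, against 20.7 and 28.6 RPKM in wild type. *GCD2* (delta) had 38.4 and 74.8 RPKM in *dbp1Δ::kanMX6* cells, against 23.6 and 30.8 RPKM in wild type. The smallest eIF2B ratio of either assay was 1.63-fold, for *GCD2* footprints (1.34 to 1.98). Relative to the median entry the eIF2B footprint ratios ranged from 1.28 to 1.80, so none remained at least 2-fold.

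Levels per length could be set side by side within each complex. Footprint RPKM of the eIF2B subunits spanned 33.9 to 67 in *dbp1Δ::kanMX6* cells and 17.4 to 29.2 in wild type, a 1.98-fold and a 1.68-fold range. Without *GCD6*, the highest, the range over 4 subunits was 1.31-fold in *dbp1Δ::kanMX6* cells and 1.36-fold in wild type. The summed footprints of eIF2B were 221.1 RPKM in *dbp1Δ::kanMX6* cells and 111.5 RPKM in wild type, against 689.7 and 590.6 RPKM for the 3 eIF2 genes. Within eIF2, *SUI3* and *GCD11* footprints lay within 1.09-fold of each other in *dbp1Δ::kanMX6* cells and 1.16-fold in wild type, while *SUI2* was higher than either.

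The eIF3 complex bridges the small subunit and eIF4F. The mRNA of all 6 of its genes had a ratio above 1, as did 71.3% of all entries, and 5 lay above the median entry. Their median log2 change was 0.75 for mRNA and 0.39 for footprints. *RPG1* (subunit a) had 53.3 RPKM of footprints and 73.7 RPKM of mRNA in *dbp1Δ::kanMX6* cells, against 37.1 and 43.9 RPKM in wild type. *PRT1* (subunit b) had 55.6 and 91.7 RPKM in *dbp1Δ::kanMX6* cells, against 37 and 56.6 RPKM in wild type. *NIP1* (subunit c) had 54.5 and 60.4 RPKM in *dbp1Δ::kanMX6* cells, against 23.7 and 35.9 RPKM in wild type. These 3 large subunits had nearly equal footprints in *dbp1Δ::kanMX6* cells, whereas in wild type *NIP1* was below the other two, and its 2.30-fold increase (1.96 to 2.70) was the third largest of all members for footprints. The *NIP1* footprint increase exceeded its mRNA increase of 1.68-fold (1.44 to 1.99), and its TE was 1.37-fold higher (1.09 to 1.71).

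*RPG1* and *PRT1* had larger mRNA than footprint increases, and the small subunits *TIF34* and *TIF35* more so. *TIF34* (subunit i) had 175.5 RPKM of footprints and 240.8 RPKM of mRNA in *dbp1Δ::kanMX6* cells, against 164.7 and 117.5 RPKM in wild type. *TIF35* (subunit g) had 84.1 and 134 RPKM in *dbp1Δ::kanMX6* cells, against 70.2 and 65.4 RPKM in wild type. Both mRNAs were 2.05-fold higher, whereas the footprint intervals of both included no change, with centred ratios of 0.838 and 0.942. TE was 1.92-fold lower for *TIF34* (1.62 to 2.28) and 1.71-fold lower for *TIF35* (1.31 to 2.24). *HCR1* (subunit j), a loosely bound factor, had the most footprints of the 6, at 401.3 RPKM in *dbp1Δ::kanMX6* cells and 374.6 RPKM in wild type, with 217.4 and 175.2 RPKM of mRNA, changes that centring turned downward. Over the 5 other subunits, footprints spanned 3.29-fold in *dbp1Δ::kanMX6* cells and 6.95-fold in wild type.

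**Figure D3:**
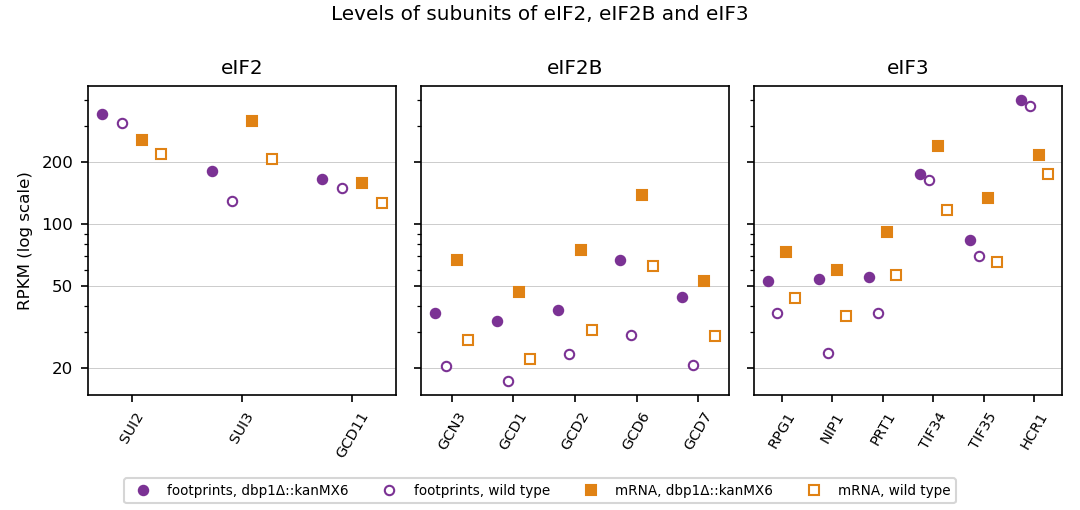
RPKM of each subunit of eIF2, eIF2B and eIF3 on a log scale, with footprints as circles and mRNA as squares, filled for *dbp1Δ::kanMX6* and open for wild type (1 library each). In eIF2B every filled symbol lies above its open one, and *RPG1*, *NIP1* and *PRT1* footprints lie between 53.3 and 55.6 RPKM in *dbp1Δ::kanMX6* cells.

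*GCN4* had by far the lowest TE of the members. Its product activates amino acid biosynthesis genes, and the leader of its mRNA carries upstream ORFs that restrain translation of the main ORF unless eIF2 is phosphorylated. *GCN4* mRNA was 3334 RPKM in *dbp1Δ::kanMX6* cells and 2773.7 RPKM in wild type, rank 23 and rank 40 of the 5552 entries kept. *GCN4* footprints were only 7.6 RPKM in *dbp1Δ::kanMX6* cells and 11.2 RPKM in wild type, an inferred 21 and 39 reads. The resulting TE was 0.00228 in *dbp1Δ::kanMX6* cells and 0.00404 in wild type, where the median of all entries was 0.707 and 0.746. Of 5452 entries only *AI1* and *ALR2* had a lower TE in *dbp1Δ::kanMX6* cells, and only *AI5_ALPHA*, *PAD1*, *TIR2* and *AI1* in wild type. These entries were looked up after their values were seen, each had at most 0.3 RPKM of footprints, and their mRNA was at most 146 RPKM. Footprints on the upstream ORFs are not part of these values, which cover ORFs only. The *GCN4* footprint interval (0.380 to 1.19) included no change, its mRNA was 1.20-fold higher (1.16 to 1.24) but lower after centring, and its TE interval was 0.332 to 0.961 of wild type.

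The upstream regulators of *GCN4* were translated at more usual rates. *GCN2*, which encodes the eIF2 kinase, had 21.4 RPKM of footprints and 38.5 RPKM of mRNA in *dbp1Δ::kanMX6* cells, against 15.2 and 33.3 RPKM in wild type. Its footprints were 1.41-fold higher (1.20 to 1.64) and its mRNA 1.16-fold, below the median entry, and with a wild-type TE of 0.456 it was the third lowest member. *GCN1* and *GCN20* encode partners that carry the starvation signal to Gcn2 on the ribosome. *GCN1* had 44.9 RPKM of footprints and 28.9 RPKM of mRNA in *dbp1Δ::kanMX6* cells, against 40.8 and 23.5 RPKM in wild type, and was below the median entry in both assays. *GCN20* had 50.4 and 74.5 RPKM in *dbp1Δ::kanMX6* cells, against 28.4 and 39.7 RPKM in wild type, so that its footprints were 1.77-fold higher (1.51 to 2.09) and its mRNA 1.88-fold (1.61 to 2.20). The ratio of *GCN20* to *GCN1* thus differed between genotypes, with *GCN20* footprints above *GCN1* in *dbp1Δ::kanMX6* cells and below in wild type.

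Other genes of this pathway were taken from lists. Of 20 genes activated by Gcn4, 16 had higher footprints in *dbp1Δ::kanMX6* cells and 14 higher mRNA, with median log2 changes of 0.79 and 0.38. These counts were 80% and 70% of the list, where 68.7% of all entries had higher footprints and 71.3% higher mRNA, so the mRNA share was near the background. Footprints were at least 1.5-fold higher for 11 of the 20 (55%), against 36.3% of all entries. For mRNA the count was 5 of the 20 (25%), against 36% of all entries. *LYS20* footprints were the most increased of these, at 123.1 RPKM in *dbp1Δ::kanMX6* cells and 41.3 RPKM in wild type, and *ARG3* footprints the most decreased, at 11.4 and 29.8 RPKM. *CPA1*, whose leader also carries an upstream ORF, had 41.7 RPKM of footprints and 865.2 RPKM of mRNA in *dbp1Δ::kanMX6* cells, against 31.7 and 409.9 RPKM in wild type, the largest mRNA increase of the list. Of 10 partners of the Gcn2 and Gcn4 proteins, *YIH1*, which encodes an inhibitor of Gcn2 activation, had the largest footprint increase, at 35.4 RPKM in *dbp1Δ::kanMX6* cells and 8.7 RPKM in wild type, and *TMA46* the largest decrease, at 56.8 and 94.1 RPKM. The mRNA extremes of the partners were *RBG2*, at 107.7 RPKM in *dbp1Δ::kanMX6* cells and 45 RPKM in wild type, and *PCL5*, at 199.3 and 287.5 RPKM.

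**Figure D4:**
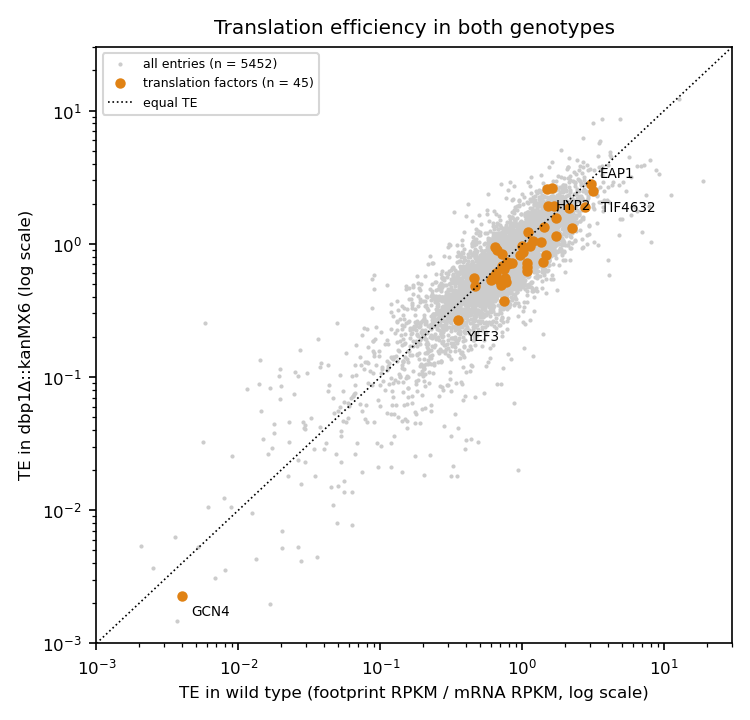
TE in *dbp1Δ::kanMX6* cells against TE in wild type, both on log scales, for 5452 entries (grey) and the 45 members (orange). *GCN4* stands alone among the members at the lower left (0.00228 and 0.00404), *YEF3* is the next lowest, and the dotted line marks equal TE.

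Elongation factors made up most of the members' signal. The *TEF1*/*TEF2* entry, for the eEF1A protein that delivers aminoacyl-tRNA, had 9577.3 RPKM of footprints and 7822.9 RPKM of mRNA in *dbp1Δ::kanMX6* cells, against 5266.9 and 4785.3 RPKM in wild type. It ranked 5 for footprints in *dbp1Δ::kanMX6* cells and 20 in wild type. Summed over all 45 members, footprints were 24291 RPKM in *dbp1Δ::kanMX6* cells and 16808 RPKM in wild type, or 2.38% and 1.57% of all RPKM in the library. *EFB1* encodes the eEF1B alpha subunit, which exchanges nucleotide on eEF1A, and had 412.9 RPKM of footprints and 642.6 RPKM of mRNA in *dbp1Δ::kanMX6* cells, against 228.6 and 310 RPKM in wild type. These differences were 1.81-fold and 2.07-fold. The 133 cytosolic ribosomal protein genes, for comparison, had median log2 changes of 1.27 for footprints and 1.37 for mRNA, and the 21 cytosolic tRNA synthetase genes 0.59 and 0.59.

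Several elongation factors exist as paralogs, and in the pairs of eEF3, eIF5A and eEF1B gamma the copy with more footprints had lower mRNA in *dbp1Δ::kanMX6* cells while the other copy had higher mRNA. The copies with lower mRNA were *HEF3*, *HYP2* and *CAM1*, which with *EAP1* were the only 4 members to have it, where 28.6% of all entries did. These copies also had the higher wild-type mRNA of their pairs, and over all entries mRNA changes were smaller at higher wild-type mRNA (rho −0.458). The part of level in the pairs was not tested. *HEF3* and *YEF3* encode eEF3, the ATPase that helps release spent tRNA, and *YEF3* is the copy used in vegetative growth. *HEF3* had 733.7 RPKM of footprints and 384.4 RPKM of mRNA in *dbp1Δ::kanMX6* cells, against 859.3 and 566.7 RPKM in wild type. *YEF3* had 282.9 and 1054.6 RPKM in *dbp1Δ::kanMX6* cells, against 150.6 and 426.8 RPKM in wild type. The most abundant eEF3 mRNA was thus *YEF3* in *dbp1Δ::kanMX6* cells and *HEF3* in wild type, while *HEF3* had more footprints in both. *HEF3* was 26.7% of the pair's mRNA in *dbp1Δ::kanMX6* cells (26.1 to 27.3) and 57.0% in wild type (55.9 to 58.2). It was 72.2% of the pair's footprints in *dbp1Δ::kanMX6* cells (71.3 to 73.0) and 85.1% in wild type (84.5 to 85.7). The footprint ratio of *HEF3* to *YEF3* was 2.59 in *dbp1Δ::kanMX6* cells and 5.71 in wild type, and the pair's summed footprints were almost equal, at 1016.6 and 1009.9 RPKM. *YEF3* TE was 0.268 in *dbp1Δ::kanMX6* cells and 0.353 in wild type, against 1.91 and 1.52 for *HEF3*, so *YEF3* was the lowest member after *GCN4* in both genotypes.

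*CAM1* and *TEF4* encode forms of eEF1B gamma. *CAM1* had 841.1 RPKM of footprints and 319.6 RPKM of mRNA in *dbp1Δ::kanMX6* cells, against 633.7 and 389.7 RPKM in wild type. Its footprints were 1.33-fold higher (1.26 to 1.39) although its mRNA was 1.22-fold lower (1.13 to 1.31), and its TE was 1.62-fold higher (1.48 to 1.77). After centring, the *CAM1* footprint ratio was 1.04, close to the median entry, and its mRNA ratio was 0.634. *TEF4* had 127.5 RPKM of footprints and 134.7 RPKM of mRNA in *dbp1Δ::kanMX6* cells, against 49.2 and 76.8 RPKM in wild type, and its 2.59-fold higher footprints were the largest increase of all members. *CAM1* was the predominant copy in every library, with 86.8% of the pair's footprints and 70.4% of its mRNA in *dbp1Δ::kanMX6* cells, and 92.8% and 83.5% in wild type.

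The eIF5A proteins, which carry the modified residue hypusine and help the ribosome through difficult peptide bonds, are encoded by *HYP2* in air and *ANB1* in low oxygen. *HYP2* had 5856.2 RPKM of footprints and 2275.4 RPKM of mRNA in *dbp1Δ::kanMX6* cells, against 4512.8 and 3026.1 RPKM in wild type. *HYP2* mRNA was 1.33-fold lower (1.27 to 1.39), its footprints 1.30-fold higher (1.26 to 1.34), and its TE 1.73-fold higher (1.64 to 1.82), the largest TE increase of all members. After centring, the *HYP2* footprint ratio was 1.02, close to the median entry, and its mRNA ratio was 0.582. *ANB1* had 35.3 RPKM of footprints and 95.4 RPKM of mRNA in *dbp1Δ::kanMX6* cells, against 29.1 and 39.4 RPKM in wild type, an inferred 55 and 57 footprint reads. *ANB1* mRNA was 2.42-fold higher (1.75 to 3.51) while its footprint interval (0.826 to 1.80) included no change, with a centred ratio of 0.954, and its TE was 0.501 of the wild-type value (0.304 to 0.825), the largest TE decrease of all members. *HYP2* nevertheless held 99.4% of the pair's footprints in both genotypes, and 96.0% of its mRNA in *dbp1Δ::kanMX6* cells against 98.7% in wild type. How reads that match both copies of this pair, or of the eEF3 pair, were assigned is not stated. The counting intervals do not cover such assignment, which bears most on the low *ANB1* values.

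Translocase eEF2 is encoded by *EFT1* and *EFT2*. *EFT1* had 397 RPKM of footprints and 210.8 RPKM of mRNA in *dbp1Δ::kanMX6* cells, against 356.1 and 129.8 RPKM in wild type, with a footprint ratio of 1.11 that was 0.877 after centring. *EFT2* had 691.7 and 358.6 RPKM in *dbp1Δ::kanMX6* cells, against 435.6 and 259.6 RPKM in wild type. *EFT2* was the higher copy in every library, and an entry for sequence that both share had 325.7 RPKM of footprints and 495.8 RPKM of mRNA in *dbp1Δ::kanMX6* cells, against 280.6 and 334.4 RPKM in wild type. That entry leaves the division of reads between the copies uncertain.

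**Figure D5:**
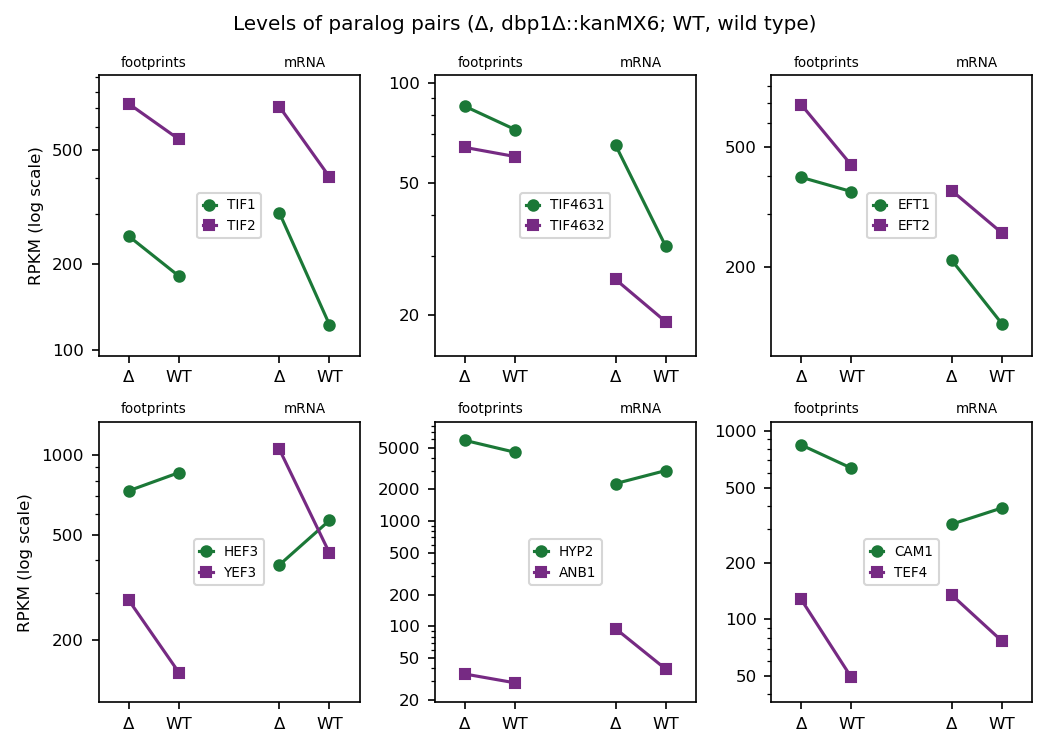
RPKM on a log scale of both genes of 6 paralog pairs, for footprints (left in each panel) and mRNA (right), in *dbp1Δ::kanMX6* (Δ) and wild-type (WT) cells, 1 library each. The *HEF3* and *YEF3* mRNA lines cross, and *HYP2* and *CAM1* stay above *ANB1* and *TEF4* in every library, on axes that differ between panels.

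The 5 termination and rescue genes had ratios above 1 in both assays, where 68.7% of all entries did for footprints and 71.3% for mRNA. After centring, *HBS1* fell below 1 for footprints (0.790) and mRNA (0.911), and *DOM34* for footprints (0.910). The median log2 changes of the 5 genes were 0.60 for footprints and 0.90 for mRNA. *RLI1*, the iron-sulfur ATPase that recycles ribosomes, had 63.6 RPKM of footprints and 112.7 RPKM of mRNA in *dbp1Δ::kanMX6* cells, against 26.1 and 40.5 RPKM in wild type. Its mRNA was 2.78-fold higher (2.36 to 3.31), the largest mRNA increase of all members, and its footprints 2.44-fold (2.05 to 2.92). *SUP45*, the release factor that reads stop codons, had 121.3 RPKM of footprints and 226.6 RPKM of mRNA in *dbp1Δ::kanMX6* cells, against 69.3 and 114.9 RPKM in wild type. *SUP35*, its GTPase partner, had 195.8 and 204.9 RPKM in *dbp1Δ::kanMX6* cells, against 129.1 and 129.8 RPKM in wild type. Both release factor genes had higher footprints, 1.75-fold for *SUP45* (1.53 to 2.01) and 1.52-fold for *SUP35* (1.40 to 1.64). *DOM34* and *HBS1* encode the related pair of proteins that free stalled ribosomes. *DOM34* had 53.1 RPKM of footprints and 79 RPKM of mRNA in *dbp1Δ::kanMX6* cells, against 45.9 and 42.2 RPKM in wild type, and *HBS1* had 95.1 and 99 RPKM against 94.6 and 84.1 RPKM. Both footprint intervals included a ratio of 1, and the *DOM34* TE was 1.62-fold lower (1.22 to 2.15).

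Lists of genes that act with the factors gave a context. Of 18 listed genes that modify or assemble translation factors, 10 were found, all 10 had mRNA at least 1.5-fold higher in *dbp1Δ::kanMX6* cells, and 8 had footprints at least 1.5-fold higher, where 36% and 36.3% of all entries were. Among these, *DPH5*, which acts in making the diphthamide residue of eEF2, had 53.8 RPKM of footprints and 75 RPKM of mRNA in *dbp1Δ::kanMX6* cells, against 19.8 and 25.9 RPKM in wild type. The lowest footprint ratio of that list was that of *DPH1*, of the same pathway, with 8.8 RPKM of footprints in *dbp1Δ::kanMX6* cells and 12.5 RPKM in wild type. Of 15 other initiation and ribosome-associated genes, 11 had higher footprints (73.3%, against 68.7% of all entries) and 12 higher mRNA (80%, against 71.3%), with median log2 changes of 0.47 and 0.37, where those of all entries were 0.35 and 0.37. Of the 15, 4 were lower for footprints and 3 for mRNA. *TMA64* was the lowest in both, with 56.1 RPKM of footprints and 75.3 RPKM of mRNA in *dbp1Δ::kanMX6* cells, against 107 and 126.7 RPKM in wild type. *PAB1*, which encodes the poly(A)-binding protein and partner of eIF4G, was also lower in both assays. It had 306.9 RPKM of footprints and 328 RPKM of mRNA in *dbp1Δ::kanMX6* cells, against 496 and 426.5 RPKM in wild type. *DED1*, the helicase paralog of *DBP1*, had 452 RPKM of footprints in *dbp1Δ::kanMX6* cells and 321.7 RPKM in wild type, with 123.1 and 107.4 RPKM of mRNA. Of the 7 ribosome rescue and quality control genes found of 15 names listed, 5 had higher footprints (71.4%, against 68.7%) and all 7 higher mRNA (against 71.3%). Their median log2 changes were 0.35 and 0.45, where those of all entries were 0.35 and 0.37. *ASC1*, the only 1 at least 1.5-fold higher for footprints, had 199.2 RPKM of footprints in *dbp1Δ::kanMX6* cells and 38.4 RPKM in wild type.

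Factors of mitochondrial translation were described in the same way. Of 6 mitochondrial translation factor genes with ratios, 2 had ratios above 1 for footprints and 2 for mRNA, where 68.7% and 71.3% of all entries did. Their median log2 changes were −0.24 and −0.14, and all 6 were below the median entry for mRNA. *TUF1*, the mitochondrial counterpart of eEF1A, had 142.4 RPKM of footprints and 113.1 RPKM of mRNA in *dbp1Δ::kanMX6* cells, against 261.4 and 231.1 RPKM in wild type. *MEF2* had the highest footprint ratio of the list, with 58.2 RPKM in *dbp1Δ::kanMX6* cells and 25.6 RPKM in wild type. Whether this list differs from the cytosolic factors was not tested.

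Across the 45 members, log2 footprint and mRNA changes were related by a Spearman rho of 0.602 (Pearson r 0.616), and TE in the genotypes by a rho of 0.850. Over all 5452 entries these were 0.666 and 0.831. Genes are not independent replicates, and the values of each pair share libraries. TE showed little relation to coding length among 42 members (rho 0.105 in *dbp1Δ::kanMX6* cells and −0.011 in wild type). With counting error alone, the interval of 33 members lay above 1 for mRNA and of 4 below, out of 38 with an interval. For footprints 26 lay above and 3 below. Ratios above 1 were found for 71.3% of all entries in mRNA and 68.7% in footprints. Intervals were not counted over all entries, so the interval counts have no background share and do not set the members apart. The median entry itself had a ratio of 1.29 for mRNA and 1.27 for footprints. Against the median entry, 23 intervals lay above and 6 below for mRNA, and 14 above and 12 below for footprints. For TE, 5 intervals lay above 1, 12 below, and 21 included it, and against the median entry (0.953) 5 lay above and 11 below.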

How the data were processed

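Ribosome profiling and mRNA sequencing were done by the authors, who mapped the reads to SK1, totalled them by ORF and deposited RPKM values, rounded to 1 decimal place, for 6549 entries. CASAVA, bcl2fastq 2.17 and Bowtie2 are named in the submitters' processing notes. Settings, annotation, strand and the treatment of reads with several matches are not given in the sources used here. Lengths and names of shared entries came from a RefSeq table for assembly R64 (S288C), whose coordinates are of another build and are not given. Sequences of the members were not analysed here.

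Ratios (pseudocount 0) were formed for entries whose mean reached 10 RPKM. The plan held no test between genotypes, because each genotype and assay has 1 library. Depth was the value at which most values of short ORFs (below 500 bp, below 20 RPKM) were whole read numbers, to within 0.1 read, which 75.9% to 82.8% of those values met, against 15.3% to 17.7% as the median over the depths tried. Reads are therefore inferred. Intervals of footprint and mRNA ratios and of paralog shares are exact conditional (Clopper-Pearson) intervals, and those of TE use the delta method on log reads. They cover counting error only, and molecular identifiers that would mark PCR copies are not described. The code was tested on simulated data. By rule, values were given for paralog pairs, *GCN4* and its regulators, complex subunits, termination factors and the members' extremes of each measure. Extremes of the other lists could be named under the plan, and only some of them are given. The members and lists were chosen with earlier results of these data known. Python 3.11.15, pandas 2.3.3, numpy 2.4.6 and SciPy 1.17.1 were used. Alternatives were pseudocounts of 0.1 and 1, other filters, other scalings, folds of 1.5 and 4, and removal of members with paralogs.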

Additional observations from a re-analysis of the deposited data

How the results depend on the processing

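Scaling moved the members' medians, and both scaling and the fold threshold moved the counts. Relative to the median of all entries, the median log2 change of the members was 0.066 for footprints and 0.38 for mRNA, and with trimmed-mean scaling 0.064 and 0.38. Under either scaling 1 member was at least 2-fold higher for footprints and 1 for mRNA, where the values as deposited gave 5 and 13. Scaling without the 50 highest and the mitochondrial entries left 8 for mRNA. A mean of at least 50 RPKM kept 35 members and left 3 for footprints. At 1.5-fold, 17 members were higher for footprints, 30 for mRNA and 2 for TE, where 36.3%, 36% and 10.7% of all entries were. For TE, 8 members were lower by 1.5-fold, where 18% of all entries were. At 4-fold, 0 members were higher for footprints and 0 for mRNA. Shares over all entries were not taken for trimmed-mean scaling, scaling without the 50 highest, the 50 RPKM filter or 4-fold. Centring turned the direction of 15 members for footprints, 9 for mRNA and 1 for TE, none of them 2-fold changed as deposited in that same measure. The median TE change stayed between −0.21 and −0.12 under every alternative run. With their shared entries, an alternative chosen after seeing the data, the summed log2 changes of *TIF1* and *TIF2* were 0.53 for footprints and 0.86 for mRNA, against 0.43 and 0.95 without. No paired analysis was possible because each group has 1 library, and no library could be left out. Depth limited *GCN4* and *ANB1* footprints most.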
